A study of Mus musculus with 35 samples.

Results

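CC chemokines are small secreted proteins that attract leukocytes, named for a pair of adjacent cysteines near the start of the mature chain. The transcripts described here are those of Ccl2, Ccl3, Ccl4, Ccl6, Ccl7, Ccl9, Ccl17, Ccl22 and Ccl24, the 9 rows of the count table with these gene names, of 49671 genes in all. They were followed in 35 RNA-seq libraries of mouse lin- HSPCs (bone marrow cells depleted of mature blood lineages), in 7 groups of 5 libraries. All 9 passed the filter on low counts, which left 17166 genes for testing, and the lowest count of any of them in any library was 62.

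The groups differed in the lentiviral construct. The empty vector carried no fusion protein. G-NHA9 is the NUP98-HOXA9 leukemia fusion with an mEGFP tag, in which phenylalanine-glycine (FG) repeats of the nucleoporin NUP98 are joined to the DNA-binding homeodomain of HOXA9. In G-NHA9-8FA, part of the FG motifs have lost their phenylalanine. In G-NHA9-21FGAA, all FG motifs of the C-terminal portion of the NUP98 segment were replaced by alanines. G-NHA9Midi keeps only that portion, without the GLEBS domain, and G-NHA9Midi-21FGAA is its version without FG motifs. G-NHA9-ΔDNA has the full set of FG motifs and a homeodomain mutated in its DNA contacts. The sample labels write NHX9 for NHA9, midi for Midi and DDNA for ΔDNA.

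All groups came from C57Bl/6 bone marrow of both sexes, were sorted by the fluorescence the vector encodes, and formed colonies for 1 week in Methocult M3434 to which GM-CSF (10 ng/mL) was added. Empty vector cells were sorted for mCherry alone, and cells with a fusion construct for both mCherry and mEGFP. Each comparison with the empty vector therefore also differs in the sort. The labels give an age of 8 weeks for the mice, apart from empty vector 4 (9 weeks), empty vector 5 (10 weeks) and G-NHA9 1 (11 weeks). Nothing says whether libraries of a group came from separate animals, and the methods describe transduction in triplicate where the legend gives 5 samples, so p-values measure the spread between these libraries. The cells are a mixed culture, and in such bulk libraries fewer cells of a type and less RNA per cell cannot be told apart.

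CC chemokines bind G protein-coupled receptors on leukocytes and thereby direct cell movement to sites of injury, infection and tissue turnover. Macrophages, monocytes, dendritic cells and mast cells make them, in bone marrow as elsewhere. The inflammatory members are induced through NF-kB, and members such as Ccl17, Ccl22 and Ccl24 also respond to type 2 cytokines and, in macrophages and dendritic cells, to GM-CSF. The monocyte attractants Ccl2 and Ccl7 act on Ccr2. Ccl3 binds Ccr1, as do the mouse myeloid chemokines Ccl6 and Ccl9. Ccl17 and Ccl22 attract T cells through Ccr4, and Ccl24 attracts eosinophils through Ccr3.

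Of the members, 6 lie on chromosome 11 (GRCm38, GENCODE M21). Ccl2 (82035571 to 82037453) and Ccl7 (82045712 to 82047525) form a pair on the plus strand, 8.3 kb apart. Farther along, Ccl9 (83572919 to 83578636), Ccl6 (83587882 to 83593087) and Ccl3 (83647844 to 83649355) lie on the minus strand and Ccl4 (83662584 to 83664683) on the plus strand. Ccl22 (94745590 to 94751699) and Ccl17 (94810453 to 94812036) are on the plus strand of chromosome 8, 58.8 kb apart, and Ccl24 (135569937 to 135573049) is on the minus strand of chromosome 5. Ccl2 and Ccl6 each overlap a gene annotated on the opposite strand (Gm17268 and E230016K23Rik). Gm17268 held no count in any library. Counts are of whole genes, exons and untranslated regions together.

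Total counts lay between 31559914 and 75810659 a library, and a count of 0 would allow up to 3 counts, or 0.0396 to 0.0951 CPM, for counting error only. No 2 libraries of a group agreed within counting noise in any of the 70 pairs. Hoxa9 counts separated the groups in part, from 0.975 ± 0.221 CPM (SD, n = 5) with the empty vector to 96.6 ± 14.4 CPM (SD, n = 5) with G-NHA9, with 18.9 to 34.6 CPM on average with G-NHA9-ΔDNA, G-NHA9-8FA and G-NHA9Midi. They were near the empty vector with G-NHA9-21FGAA (3.28 ± 1.92 CPM, SD, n = 5) and G-NHA9Midi-21FGAA (1.12 ± 0.720 CPM, SD, n = 5), so they do not separate every label from the control. Every fusion construct carries a part of HOXA9. Whether reads of the constructs themselves entered the Hoxa9 counts was not tested. Among macrophage markers, Cd68 and Adgre1 averaged between 433 and 840 CPM in every group, whereas Vsig4, Timd4 and Cd163, which mark some tissue-resident macrophages, were at or near 0. Levels are in CPM, counts scaled by library size with TMM factors. Differences were tested with edgeR (quasi-likelihood F-test), with p-values adjusted over the 17166 genes by the Benjamini-Hochberg method. Genes with an adjusted p under 0.05 are termed called.

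Per kilobase of exon, Ccl6 stood far above the other members, with a mean of 3254 CPM per kb over the 35 libraries. It ranked 14 of the 17166 genes by CPM and took between 0.231% and 0.861% of all counts in a library. Next came Ccl3 (309 CPM per kb), Ccl9 (244), Ccl4 (159), Ccl2 (116), Ccl7 (45.5), Ccl17 (27.6), Ccl24 (5.86) and Ccl22 (2.86). Ccl6 was the only member whose lowest library (1160 CPM per kb) lay above the highest of the next (652 for Ccl3), and every later pair of neighbours in this order overlapped across libraries. Of the summed CPM of the 9 members, Ccl6 made up 89.2% with the empty vector and 70.4% with G-NHA9. Without Ccl6, the sum was 1032 ± 204 CPM (SD, n = 5) with the empty vector and between 1127 and 1562 CPM on average with the constructs.

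**Figure D1:**
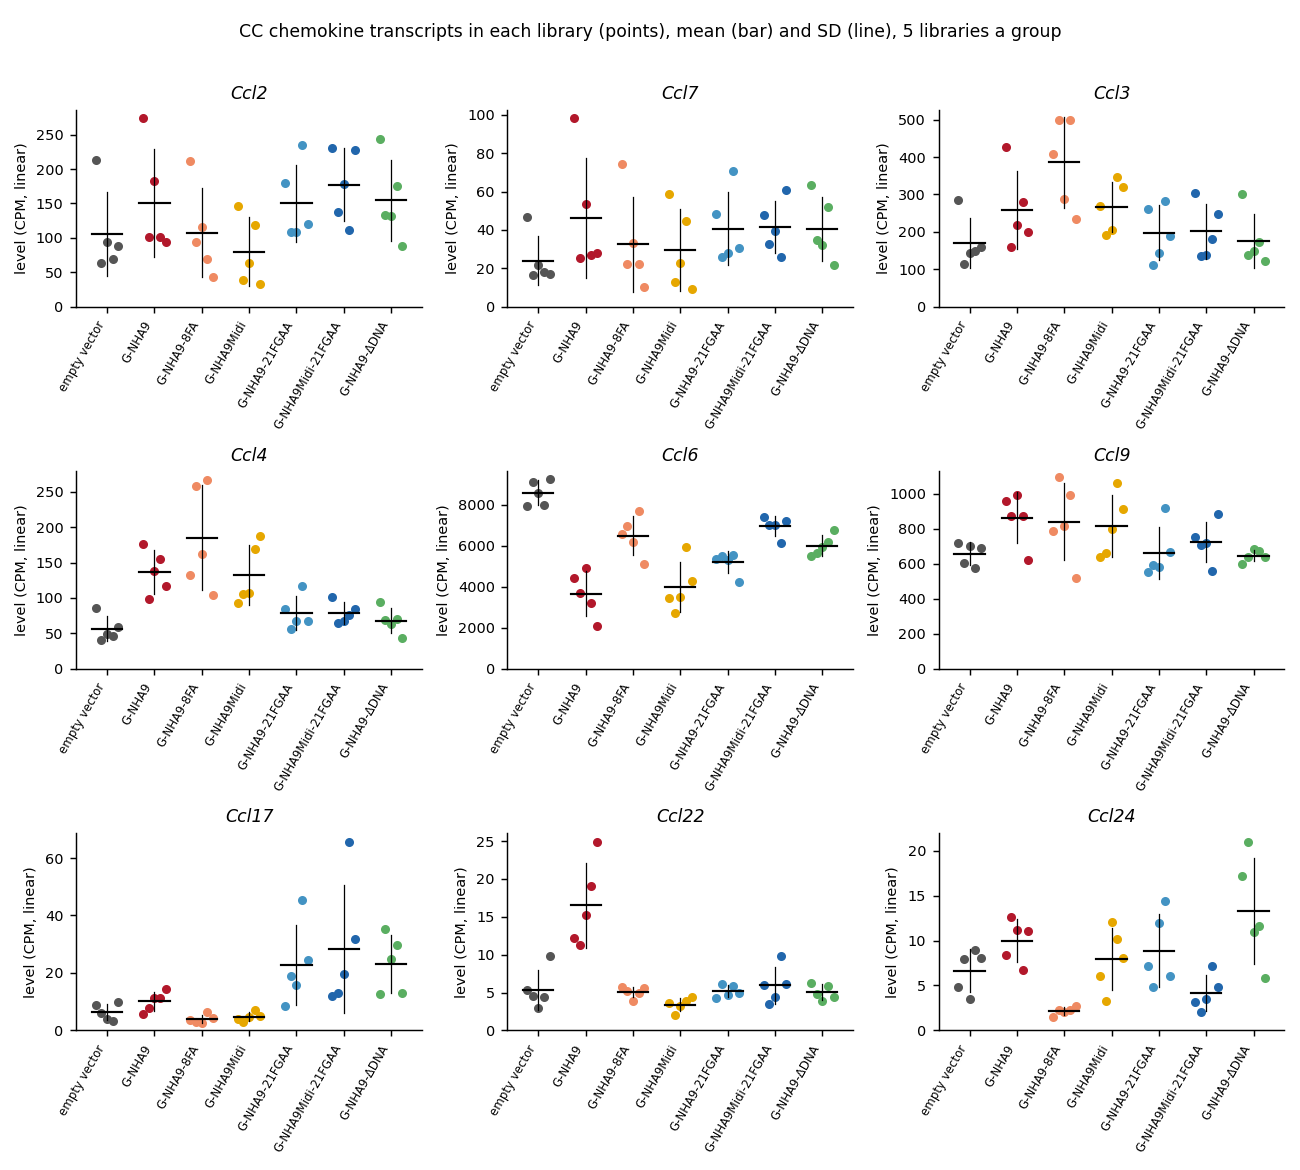
Level of each CC chemokine in CPM on a linear axis, 1 panel a gene and 1 point a library, for the 7 groups of 5 libraries, with the mean as a bar and the SD as a line. Ccl6 was highest with the empty vector, Ccl4 was higher with G-NHA9Midi, G-NHA9 and G-NHA9-8FA, Ccl22 stood out with G-NHA9, and Ccl17 was high with the 21FGAA and ΔDNA constructs.

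Across the 7 groups in 1 test, 6 of the 9 members differed (60.3% of all genes tested did): Ccl3, Ccl4, Ccl6, Ccl17, Ccl22 and Ccl24. The adjusted p of Ccl2, Ccl7 and Ccl9 was 0.16, 0.54 and 0.072. Against the empty vector, G-NHA9 changed 3 members (32.1% of all genes), with Ccl4 and Ccl22 higher and Ccl6 lower. G-NHA9-8FA changed 3 (26.6% of all genes), with Ccl3 and Ccl4 higher and Ccl24 lower, and G-NHA9Midi changed 2 (40.5% of all genes), with Ccl4 higher and Ccl6 lower. G-NHA9-21FGAA changed 2 (27.1% of all genes), with Ccl17 higher and Ccl6 lower. G-NHA9Midi-21FGAA changed only Ccl17 (16.9% of all genes), upward, and G-NHA9-ΔDNA changed 3 (17.2% of all genes), with Ccl17 and Ccl24 higher and Ccl6 lower.

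These shares, between 1 and 3 of 9, lay around those of all genes. The median log2 fold change of the 9 members against the empty vector ran from 0.02 (G-NHA9-8FA) to 0.59 (G-NHA9), beside medians between -0.02 and 0.03 over all genes. The 6 comparisons share the empty vector libraries, and those with G-NHA9 below share its libraries. Without TMM scaling, the all-gene median rose to 0.19 for G-NHA9 against the empty vector, and the share of called genes that were higher went from 52.5% to 75.4%. No called member changed direction under that scaling.

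**Figure D2:**
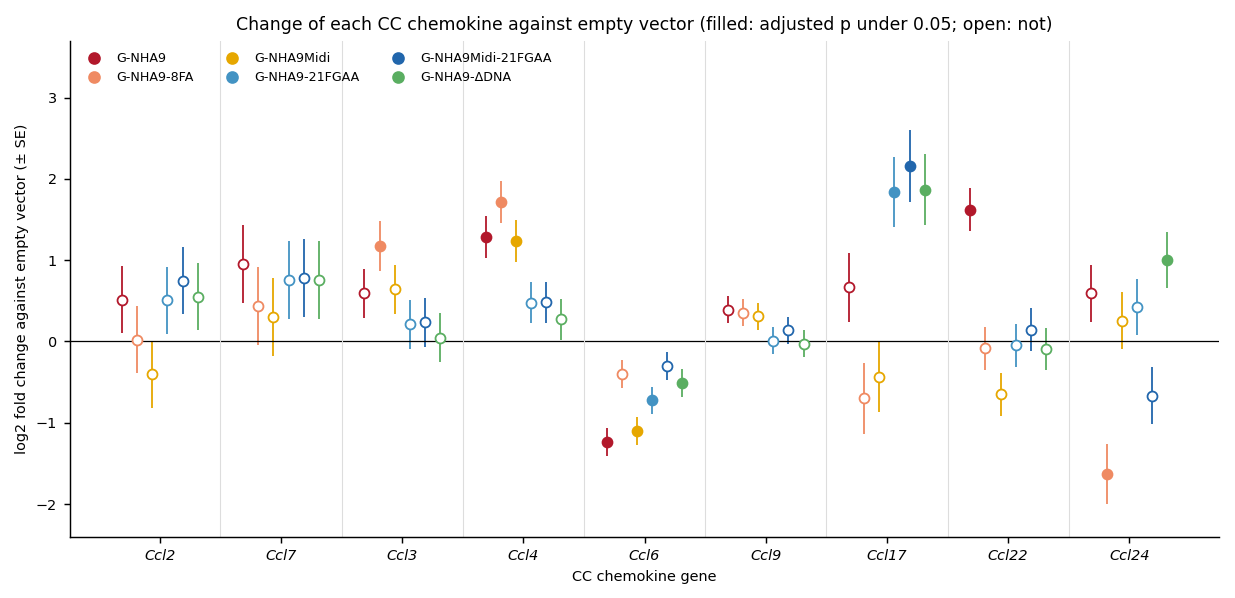
Log2 fold change of each CC chemokine against the empty vector with its SE, for the 6 constructs in colour, 5 libraries a group. Filled points passed an adjusted p of 0.05. Ccl4 was called with G-NHA9Midi, G-NHA9 and G-NHA9-8FA, Ccl17 with the other 3 constructs, while no point of Ccl2, Ccl7 or Ccl9 was filled.

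Against G-NHA9, G-NHA9-8FA changed 4 members (14.5% of all genes), G-NHA9Midi changed 1 (19.7% of all genes), G-NHA9-21FGAA changed 3 (17.2% of all genes) and G-NHA9-ΔDNA changed 4 (22.1% of all genes). Ccl22 was lower in all 4. G-NHA9Midi-21FGAA differed from G-NHA9Midi in 6 members (43.2% of all genes), and G-NHA9-21FGAA from G-NHA9-8FA in 4 (32.4% of all genes). G-NHA9Midi differed from G-NHA9-8FA in 2 members, Ccl6 and Ccl24 (4.25% of all genes), and from G-NHA9-21FGAA in 2, Ccl4 and Ccl17 (36.1% of all genes).

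Counted by the libraries themselves, all 5 of a construct lay above, or all 5 below, every empty vector library for 3 members with G-NHA9 (20.1% of all genes) and 3 with G-NHA9-8FA (17.1%). For G-NHA9Midi it was 2 members (27.4% of all genes), for G-NHA9-21FGAA 1 (16.8%), for G-NHA9Midi-21FGAA 2 (11.5%) and for G-NHA9-ΔDNA 2 (12.1%). Against G-NHA9, the groups did not overlap for 3 members with G-NHA9-8FA (9.4% of all genes), 1 with G-NHA9Midi (13.1%), 1 with G-NHA9-21FGAA (11.5%) and 3 with G-NHA9-ΔDNA (14.2%). It was 2 members for G-NHA9Midi-21FGAA against G-NHA9Midi (30.1% of all genes) and 2 for G-NHA9-21FGAA against G-NHA9-8FA (20.2%). G-NHA9Midi did not overlap G-NHA9-8FA for 1 member (5.25% of all genes), nor G-NHA9-21FGAA for 1 (24.5%).

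Ccl6, a myeloid attractant that macrophages and neutrophils make in quantity, was lower than with the empty vector in every library of every construct. In empty vector libraries 1 to 5 it stood at 7939, 9104, 8605, 8006 and 9274 CPM. With G-NHA9 it was 4404, 3671, 4904, 3190 and 2083 CPM, and with G-NHA9Midi 3450, 2725, 3514, 5962 and 4303 CPM. Both groups lay wholly below the empty vector, and the change was -1.23 ± 0.17 on the log2 scale (SE; adjusted p = 1.2e-06, edgeR) for G-NHA9 and -1.11 ± 0.17 (SE; adjusted p = 3.8e-06, edgeR) for G-NHA9Midi.

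With the other constructs Ccl6 was less far below. With G-NHA9-8FA, Ccl6 was 6576, 6947, 6204, 7690 and 5095 CPM, and with G-NHA9-21FGAA 5356, 5508, 5321, 5542 and 4238 CPM. The log2 change was -0.40 ± 0.17 (SE) for G-NHA9-8FA, which did not pass (adjusted p = 0.08, edgeR), and -0.73 ± 0.17 (SE; adjusted p = 0.0019, edgeR) for G-NHA9-21FGAA. Neither group overlapped the empty vector, although G-NHA9-8FA missed the threshold. It passed with only the groups compared (adjusted p = 0.05 as rounded, edgeR), with DESeq2 (adjusted p = 0.048) and without G-NHA9-8FA 4 (adjusted p = 0.045, edgeR).

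With G-NHA9Midi-21FGAA, Ccl6 stood at 7425, 7035, 7016, 6121 and 7193 CPM, and with G-NHA9-ΔDNA at 5508, 5653, 5921, 6176 and 6789 CPM. Neither overlapped the empty vector. The log2 change was -0.30 ± 0.17 (SE; adjusted p = 0.23, edgeR) and -0.51 ± 0.17 (SE; adjusted p = 0.034, edgeR). The call with G-NHA9-ΔDNA was lost without any 1 of empty vector 2, 3 or 5 or G-NHA9-ΔDNA 1, 2 or 3 (adjusted p up to 0.077, edgeR), without TMM scaling (adjusted p = 0.069, edgeR), with the libraries labelled 8 weeks alone, and without the libraries numbered 1.

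Between constructs, Ccl6 was higher than with G-NHA9 in G-NHA9-8FA (log2 0.83 ± 0.17, SE; adjusted p = 0.00094, edgeR) and G-NHA9-ΔDNA cells (0.72 ± 0.17, SE; adjusted p = 0.0021, edgeR), with no overlap in either. Loss of the FG motifs from G-NHA9Midi also went with more Ccl6 (0.80 ± 0.17, SE; adjusted p = 0.00027, edgeR), again without overlap. The same substitution in the long construct gave 0.51 ± 0.17 (SE; adjusted p = 0.035, edgeR). That call was lost without any 1 of G-NHA9 4 or 5 or G-NHA9-21FGAA 3 or 4 (adjusted p up to 0.082, edgeR), with only the compared groups in the fit, and without the libraries numbered 1. In G-NHA9Midi, Ccl6 was lower than in G-NHA9-8FA (-0.70 ± 0.17, SE; adjusted p = 0.012, edgeR), a call that was lost without G-NHA9Midi 2 (adjusted p = 0.063, edgeR) and under those same 2 changes of the fit.

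The 250 bases before the start of Ccl6 (GRCm38.p6, RefSeq, minus strand, chr11:83593088-83593337) are shown because this gene had the largest share of all members' RNA. Capitals mark a PU.1-type match.
Ccl6: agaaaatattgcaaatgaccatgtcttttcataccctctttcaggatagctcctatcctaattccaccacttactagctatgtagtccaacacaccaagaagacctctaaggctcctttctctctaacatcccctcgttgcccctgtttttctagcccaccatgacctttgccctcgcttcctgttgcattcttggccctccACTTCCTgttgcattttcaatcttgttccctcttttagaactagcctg
The match lies 48 to 42 bases before the start, on the minus strand of the sequence as printed. The letters searched were AGGAAGT on both strands, which 7.69% of 32851 promoters of this length hold. PU.1 is a transcription factor of myeloid cells, and a match is a run of letters, not a bound site.

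E230016K23Rik, on the opposite strand over Ccl6, was also lower with G-NHA9 (3.87 against 11.5 CPM) and, among the 6 constructs, was called lower in all but G-NHA9Midi-21FGAA. The library kit keeps the strand, but how strand was treated in counting is not given in the sources used here, so reads of the pair may not be fully separated. Its group means ran from 3.61 to 11.5 CPM, beside 3650 to 8585 CPM for Ccl6.

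Ccl9, a relative of Ccl6 that lies 9.2 kb from it, was not called in any comparison. It stood between 574 and 716 CPM with the empty vector, between 619 and 993 CPM with G-NHA9 and between 640 and 1063 CPM with G-NHA9Midi. Its log2 change against the empty vector lay between -0.03 (G-NHA9-ΔDNA) and 0.39 ± 0.16 (G-NHA9, SE; adjusted p = 0.067, edgeR). Without TMM scaling the change with G-NHA9 was 0.56 (adjusted p = 0.0049, edgeR) and that with G-NHA9Midi 0.43 (adjusted p = 0.026, edgeR). The median of all genes was 0.19 and 0.14 in these comparisons under that setting. With TMM scaling, the change with G-NHA9 passed with only the groups compared (0.41; adjusted p = 0.034, edgeR) and without G-NHA9 5 (0.47; adjusted p = 0.028, edgeR).

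Ccl4, an attractant of monocytes and lymphocytes, rose with 3 constructs, G-NHA9Midi among them. In empty vector libraries it stood at 86.0, 41.0, 49.3, 46.7 and 58.4 CPM. With G-NHA9 it was 177, 97.7, 138, 155 and 118 CPM, and with G-NHA9-8FA 132, 258, 163, 268 and 105 CPM. All 10 libraries of these constructs lay above the highest empty vector library, the first. The log2 change was 1.28 ± 0.26 (SE; adjusted p = 2e-04, edgeR) for G-NHA9 and 1.72 ± 0.26 (SE; adjusted p = 5.4e-06, edgeR) for G-NHA9-8FA.

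G-NHA9Midi gave 92.9, 105, 107, 169 and 188 CPM of Ccl4, again above every empty vector library, and a log2 change of 1.23 ± 0.26 (SE; adjusted p = 2e-04, edgeR). With the other constructs Ccl4 overlapped the empty vector. It was 84.2, 56.4, 67.7, 117 and 67.0 CPM with G-NHA9-21FGAA, 102, 64.6, 66.8, 75.7 and 84.8 CPM with G-NHA9Midi-21FGAA, and 93.8, 68.8, 62.8, 70.3 and 43.9 CPM with G-NHA9-ΔDNA. Their log2 changes were 0.48 ± 0.25, 0.48 ± 0.25 and 0.27 ± 0.25 (SE), with adjusted p of 0.16, 0.19 and 0.51 from edgeR.

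The differences between constructs were tested as well. Ccl4 was lower with G-NHA9-ΔDNA than with G-NHA9 (log2 -1.01 ± 0.25, SE; adjusted p = 0.0035, edgeR), without overlap. It was lower with G-NHA9-21FGAA than with G-NHA9-8FA (-1.24 ± 0.25, SE; adjusted p = 0.00031, edgeR), with overlap of 1 library. The comparison of G-NHA9-21FGAA with G-NHA9 gave -0.80 ± 0.25 (SE; adjusted p = 0.024, edgeR). Its call was lost without any 1 of G-NHA9 1 or 4 or G-NHA9-21FGAA 2, 3 or 5 (adjusted p up to 0.085, edgeR), with the libraries labelled 8 weeks alone, and without those numbered 1.

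Loss of FG motifs in the short construct lowered Ccl4 by a similar amount, -0.75 ± 0.25 (SE; adjusted p = 0.016, edgeR), and that call was lost without G-NHA9Midi 4 or 5 (adjusted p up to 0.066, edgeR). Ccl4 was 0.76 ± 0.25 higher (SE; adjusted p = 0.018, edgeR) with G-NHA9Midi than with G-NHA9-21FGAA, a call lost without any 1 of G-NHA9Midi 4 or 5 or G-NHA9-21FGAA 2 or 5 (adjusted p up to 0.072, edgeR). The change by the FG substitutions did not differ detectably between the long and the short construct (difference -0.05, 95% interval -0.78 to 0.67; adjusted p = 0.95, edgeR).

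Ccl3, a Ccr1 ligand whose gene lies 13.2 kb from Ccl4 on the other strand, was called against the empty vector only with G-NHA9-8FA. Its levels were 286, 114, 145, 150 and 159 CPM with the empty vector and 407, 499, 288, 500 and 234 CPM with G-NHA9-8FA. All but the last of the G-NHA9-8FA libraries lay above the highest empty vector library. The log2 change was 1.17 ± 0.30 (SE; adjusted p = 0.0039, edgeR).

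With G-NHA9, Ccl3 was 428, 160, 219, 281 and 201 CPM, and with G-NHA9Midi 270, 192, 206, 346 and 319 CPM. Both groups overlapped the empty vector, and the changes of 0.59 ± 0.30 (SE; adjusted p = 0.14, edgeR) and 0.64 ± 0.30 (SE; adjusted p = 0.09, edgeR) did not pass. With the replicate number as a block, a pairing that the libraries of this comparison bear out, the change with G-NHA9 passed (0.58; adjusted p = 0.027, edgeR). It passed also without empty vector 1, the highest of its group (0.86; adjusted p = 0.032, edgeR). In G-NHA9-21FGAA cells Ccl3 was lower than in G-NHA9-8FA cells (-0.96 ± 0.30, SE; adjusted p = 0.014, edgeR), a call lost without G-NHA9-8FA 4 or G-NHA9-21FGAA 2 (adjusted p up to 0.057, edgeR).

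The ratio of Ccl4 to Ccl3 reads had a geometric mean of 0.335 with the empty vector (0.301 to 0.366) and 0.551 with G-NHA9 (0.413 to 0.627). Those ranges did not overlap, and the geometric means of the other groups lay between 0.395 and 0.490. The ratio was not tested. Across the 35 libraries, log2 CPM of Ccl3 and Ccl4 had a Pearson correlation of 0.884, and 0.856 after the group means were removed. This is a description of libraries that share culture, depth and groups.

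Ccl2 and Ccl7, the neighbouring monocyte attractants of Ccr2, did not pass the test over the 7 groups (adjusted p = 0.16 and 0.54, edgeR), with a wide spread inside each group. Ccl2 was 213, 63.9, 94.3, 69.1 and 87.9 CPM with the empty vector and 274, 102, 183, 101 and 93.4 CPM with G-NHA9. Ccl7 was 46.8, 16.4, 21.5, 18.2 and 17.2 CPM with the empty vector and 98.2, 25.5, 53.7, 26.8 and 27.8 CPM with G-NHA9. The first library was highest in each case, and both groups overlapped for both genes.

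Neither gene was called in any of the 6 comparisons with the empty vector. The log2 change of Ccl2 ran from -0.40 ± 0.41 (G-NHA9Midi, SE; adjusted p = 0.46, edgeR) to 0.75 ± 0.41 (G-NHA9Midi-21FGAA, SE; adjusted p = 0.22, edgeR). That of Ccl7 ran from 0.30 ± 0.48 (G-NHA9Midi, SE; adjusted p = 0.65, edgeR) to 0.95 ± 0.48 (G-NHA9, SE; adjusted p = 0.13, edgeR). When the replicate number entered the fit as a block, 5 members instead of 3 were called for G-NHA9 against the empty vector, Ccl3 and Ccl7 being added (Ccl7, 0.90; adjusted p = 0.033, edgeR). For G-NHA9Midi-21FGAA 3 instead of 1 were called, with Ccl2 (0.90; adjusted p = 0.02, edgeR) and Ccl7 (1.00; adjusted p = 0.029, edgeR).

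Between the short constructs, Ccl2 was 146, 38.5, 63.4, 118 and 33.3 CPM with G-NHA9Midi and 231, 138, 178, 112 and 228 CPM with G-NHA9Midi-21FGAA. The groups overlapped, and Ccl2 was higher without FG motifs (log2 1.15 ± 0.42, SE; adjusted p = 0.025, edgeR). The call was lost without any 1 of G-NHA9Midi 2, 3 or 5 or G-NHA9Midi-21FGAA 1 or 5 (adjusted p up to 0.075, edgeR). Ccl7 moved by 0.48 ± 0.48 in the same comparison (SE; adjusted p = 0.44, edgeR).

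The libraries numbered 1 stood apart for these genes. For Ccl2, library 1 lay above its group's mean in 7 of 7 groups and was the highest in 6, by 0.85 on the log2 scale on average. For Ccl7 it was above the mean in 7 of 7 and highest in 5 (0.94 on average), and for Ccl3 above in 7 of 7 and highest in 4 (0.55 on average). Ccl6 did not share this (0.02 on average, highest in 1 of 7). For Ccl17, library 1 went the other way, above its group's mean in only 1 of 7 groups (-0.46 on average). The libraries numbered 4 were above it for Ccl17 in 6 of 7 groups and highest in 4 (0.56 on average). Ccl2 and Ccl7 had a Pearson correlation of 0.951 in log2 CPM across the 35 libraries, and of 0.982 after the group means were removed. The labels do not say what a number shares across groups, and its part in the results was not tested beyond the block and the removal of the libraries numbered 1.

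**Figure D3:**
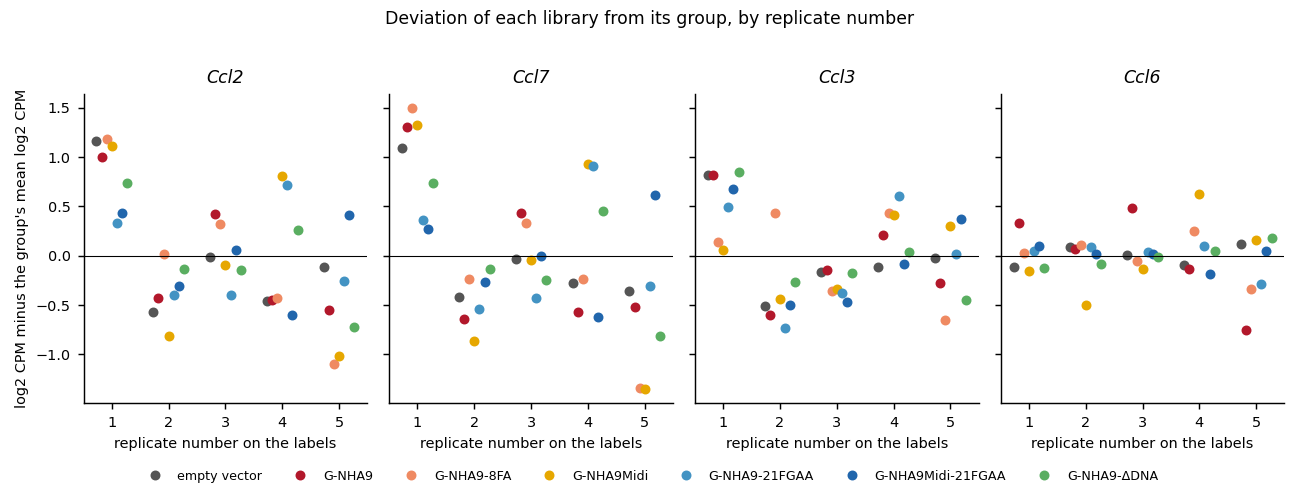
Deviation of each library from its group's mean in log2 CPM (vertical axis) by the replicate number on the labels (horizontal axis), for Ccl2, Ccl7, Ccl3 and Ccl6, 1 point a library, coloured by group. Library 1 lay above its group's mean in 7 of 7 groups for Ccl2, Ccl7 and Ccl3, and scattered around 0 for Ccl6.

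Ccl17 and Ccl22, the chromosome 8 pair that act on the same receptor, Ccr4, followed different constructs. Ccl22 stood at 5.28, 4.48, 2.96, 4.35 and 9.86 CPM with the empty vector and at 12.2, 11.3, 15.2, 19.1 and 24.9 CPM with G-NHA9. All G-NHA9 libraries were above all empty vector libraries, and the log2 change was 1.62 ± 0.27 (SE; adjusted p = 1.5e-05, edgeR). No other construct was called against the empty vector in this fit. The group means of the others lay between 3.41 ± 0.860 CPM (SD, n = 5; G-NHA9Midi) and 5.94 ± 2.44 CPM (SD, n = 5; G-NHA9Midi-21FGAA), beside 5.38 ± 2.64 CPM (SD, n = 5) with the empty vector. G-NHA9Midi was at the threshold (-0.65 ± 0.27, SE; adjusted p = 0.05, edgeR) and did not pass. It was called lower in 4 of 10 alternatives (RLE size factors, a mean of at least 1 CPM, the replicate block and DESeq2; adjusted p down to 0.023), and without any 1 of empty vector 2, 3 or 4 or G-NHA9Midi 5.

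Each of the 20 libraries of the 4 constructs compared with G-NHA9 held less Ccl22 than any G-NHA9 library. G-NHA9-8FA gave 5.69, 5.18, 3.93, 4.90 and 5.62 CPM and a log2 change from G-NHA9 of -1.71 ± 0.27 (SE; adjusted p = 2.8e-05, edgeR). G-NHA9Midi gave 3.65, 2.07, 3.17, 3.82 and 4.35 CPM and -2.27 ± 0.27 (SE; adjusted p = 1.9e-07, edgeR). The change was -1.67 ± 0.26 (SE; adjusted p = 1.6e-05, edgeR) for G-NHA9-21FGAA and -1.71 ± 0.27 (SE; adjusted p = 9.5e-06, edgeR) for G-NHA9-ΔDNA. These calls held without any 1 library.

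In the short construct, loss of FG motifs moved Ccl22 the other way, from G-NHA9Midi to 5.97, 3.44, 4.36, 9.82 and 6.08 CPM with G-NHA9Midi-21FGAA (log2 0.79 ± 0.26, SE; adjusted p = 0.015, edgeR). The groups overlapped in 1 library, and the call was lost without G-NHA9Midi 2 or G-NHA9Midi-21FGAA 4 (adjusted p up to 0.098, edgeR). The difference between the change by the FG substitutions in the long and in the short construct was -2.46 ± 0.37 (SE; adjusted p = 2.2e-05, edgeR). Ccl22 was the only member called in that comparison, which called 12.6% of all genes.

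Ccl17 was raised by G-NHA9-21FGAA, G-NHA9Midi-21FGAA and G-NHA9-ΔDNA. It stood at 8.73, 6.20, 3.90, 3.15 and 9.73 CPM with the empty vector, at 8.59, 18.9, 15.9, 45.5 and 24.6 CPM with G-NHA9-21FGAA, and at 12.0, 12.96, 19.6, 65.4 and 31.8 CPM with G-NHA9Midi-21FGAA. Only the first library of G-NHA9-21FGAA overlapped the empty vector. The log2 change was 1.84 ± 0.43 (SE; adjusted p = 0.0019, edgeR) and 2.16 ± 0.44 (SE; adjusted p = 0.0014, edgeR).

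With G-NHA9-ΔDNA, Ccl17 was 12.7, 35.4, 25.0, 29.6 and 13.1 CPM, above all empty vector libraries (1.87 ± 0.43, SE; adjusted p = 0.0037, edgeR). With G-NHA9 it was 5.64, 7.81, 11.2, 11.2 and 14.5 CPM, and the change of 0.67 ± 0.43 (SE; adjusted p = 0.25, edgeR) did not pass. G-NHA9-8FA gave 3.68, 2.78, 2.696, 6.26 and 4.25 CPM and G-NHA9Midi 4.05, 2.82, 4.56, 7.06 and 4.94 CPM. Both overlapped the empty vector, with changes of -0.70 ± 0.44 (SE; adjusted p = 0.26, edgeR) and -0.44 ± 0.43 (SE; adjusted p = 0.45, edgeR).

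Direct tests between constructs bore on this order. Ccl17 was higher with G-NHA9Midi-21FGAA than with G-NHA9Midi (log2 2.60 ± 0.45, SE; adjusted p = 1.5e-05, edgeR) and with G-NHA9-21FGAA than with G-NHA9-8FA (2.54 ± 0.45, SE; adjusted p = 4.3e-05, edgeR). It was lower with G-NHA9Midi than with G-NHA9-21FGAA (-2.28 ± 0.44, SE; adjusted p = 0.00011, edgeR). None of these 3 pairs of groups overlapped, and each call held without any 1 library.

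The tests of Ccl17 against G-NHA9 lay close to the threshold. G-NHA9-8FA was lower (-1.36 ± 0.44, SE; adjusted p = 0.033, edgeR), and the call was lost without any 1 of G-NHA9 4 or 5 or G-NHA9-8FA 1, 2 or 3 (adjusted p up to 0.1, edgeR). G-NHA9-ΔDNA was higher (1.2005 ± 0.42, SE; adjusted p = 0.039, edgeR), and 7 of the 10 removals of a library ended that call (G-NHA9 1, 2, 3 or 4 or G-NHA9-ΔDNA 2, 3 or 4; adjusted p up to 0.11, edgeR). So did leaving out TMM scaling, the libraries not labelled 8 weeks, or those numbered 1. G-NHA9-21FGAA missed the threshold (1.18 ± 0.42, SE; adjusted p = 0.052, edgeR) and passed it with the replicate number as a block (1.06; adjusted p = 0.029, edgeR). G-NHA9Midi also missed it (-1.10 ± 0.43, SE; adjusted p = 0.07, edgeR) and was called lower in 4 of 10 alternatives (the replicate block, only the groups compared, DESeq2 and the libraries labelled 8 weeks; adjusted p down to 0.016) and without G-NHA9 1.

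Read for read, the ratio of Ccl17 to Ccl22 had a geometric mean of 0.605 with G-NHA9 (0.464 to 0.737 across libraries). By the same mean, Ccl17 stood at 3.81 times Ccl22 with G-NHA9-21FGAA (1.98 to 7.75), 4.12 times with G-NHA9Midi-21FGAA (2.01 to 6.66) and 4.30 times with G-NHA9-ΔDNA (2.02 to 7.35). The ranges of these 3 groups lay wholly above that of G-NHA9 and above that of the empty vector (0.725 to 1.66). The ratio was not tested. Across the 35 libraries the correlation of the pair in log2 CPM was 0.293, and 0.616 after the group means were removed, so within groups the libraries with more of one tended to hold more of the other.

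**Figure D4:**
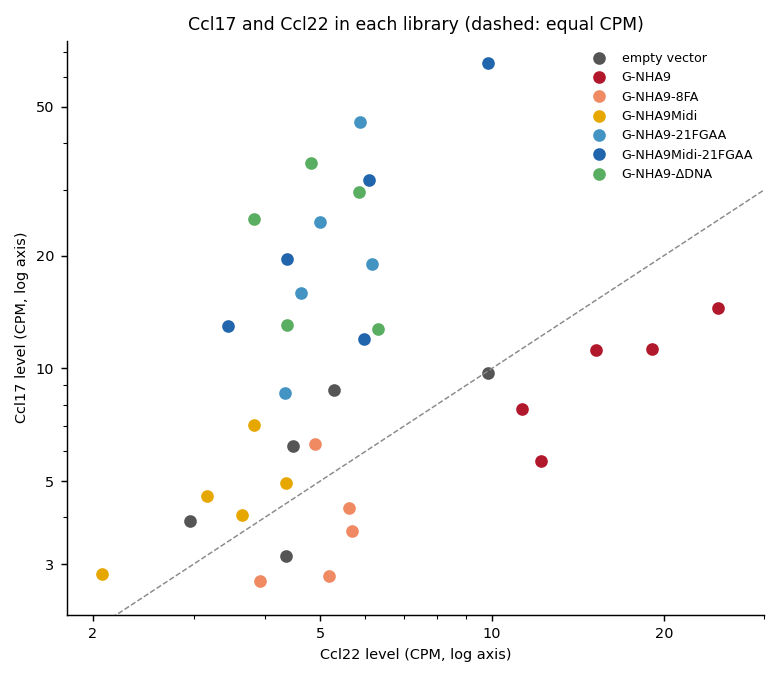
Ccl17 (vertical) against Ccl22 (horizontal) in CPM, both on log axes, 1 point a library, coloured by group. The dashed line marks equal CPM. G-NHA9 libraries lie to the right, with Ccl22 between 11.3 and 24.9 CPM, and libraries of the 21FGAA and ΔDNA constructs lie at the top, with Ccl17 between 8.59 and 65.4 CPM and Ccl22 at no more than 9.82 CPM.

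The sequences before the starts of both genes are given because these nearby chemokine genes, with Cx3cl1 and a pseudogene between them, followed different constructs (GRCm38.p6, RefSeq, plus strand). For Ccl17 they are the 250 bases of chr8:94810203-94810452. For Ccl22 they are chr8:94745434-94745589, the 156 of the 250 bases that lie before the first start annotated in GENCODE. Capitals mark STAT-type palindromes.
Ccl17: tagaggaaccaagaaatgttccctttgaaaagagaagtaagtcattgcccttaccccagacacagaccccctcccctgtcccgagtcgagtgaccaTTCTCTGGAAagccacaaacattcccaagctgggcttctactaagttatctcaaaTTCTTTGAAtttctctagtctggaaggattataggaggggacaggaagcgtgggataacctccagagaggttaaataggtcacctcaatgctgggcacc
Ccl22: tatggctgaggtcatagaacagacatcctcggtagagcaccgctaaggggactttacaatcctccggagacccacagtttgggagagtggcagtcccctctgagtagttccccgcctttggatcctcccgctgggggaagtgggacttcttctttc
Ccl17 holds TTC and GAA with 3 bases between them (99 to 91 bases before its start) and again with 4 bases between them (154 to 145 bases before), and the matches do not overlap. Of 32851 promoters of this length, 7.02% hold the 3-base form and 5.85% the 4-base form. Ccl22 holds neither in its 250 bases.

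Other letters searched, on both strands, were GGGA and TTCC with any 2 bases between (kappaB; 1.21% of promoters), TGANTCA (AP-1; 6.75%), TTGCNNAA (C/EBP; 9.56%), TTTATNG (HOX; 9.81%) and TATAAA (12.4%). Promoters of this table matched 5 of the 9 members, namely Ccl3, Ccl6, Ccl9, Ccl17 and Ccl22. Neither Ccl17 nor Ccl22 nor Ccl3 held any of these other letters, and Ccl9 held AP-1 and TATAAA matches. Absence of a match says only that these letters are not in this window.

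Ccl24, an eosinophil attractant that acts on Ccr3, was lower with G-NHA9-8FA. It stood at 4.82, 7.90, 3.51, 9.00 and 8.05 CPM with the empty vector and at 1.45, 2.23, 2.09, 2.29 and 2.69 CPM with G-NHA9-8FA, below every empty vector library. The log2 change was -1.63 ± 0.37 (SE; adjusted p = 0.00099, edgeR). It was lower there also than with G-NHA9 (-2.22 ± 0.37, SE; adjusted p = 6.8e-05, edgeR), whose libraries held 8.42, 12.6, 11.2, 6.70 and 11.1 CPM.

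With G-NHA9Midi, Ccl24 was not called against the empty vector (0.26 ± 0.35, SE; adjusted p = 0.58, edgeR). Its libraries held 6.04, 3.30, 12.1, 10.1 and 8.08 CPM, all above those of G-NHA9-8FA (1.89 ± 0.37, SE; adjusted p = 0.0015, edgeR). G-NHA9-21FGAA, with 7.14, 4.85, 12.0, 14.4 and 6.09 CPM, was likewise above G-NHA9-8FA in every library (2.05 ± 0.37, SE; adjusted p = 5.1e-05, edgeR). Those differences held without any 1 library.

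With G-NHA9-ΔDNA, Ccl24 reached 17.2, 21.0, 10.9, 11.7 and 5.82 CPM, and only the last overlapped the empty vector. The log2 change of 1.00 ± 0.35 (SE; adjusted p = 0.043, edgeR) lost its call without any 1 of empty vector 1, 2 or 3 or G-NHA9-ΔDNA 1, 2 or 3 (adjusted p up to 0.15, edgeR). It was also lost without the filter on low counts, with only the compared groups in the fit, and without the libraries numbered 1. Ccl24 was 3.15, 2.06, 3.54, 7.22 and 4.88 CPM with G-NHA9Midi-21FGAA and lower than with G-NHA9Midi (-0.93 ± 0.35, SE; adjusted p = 0.032, edgeR). The groups overlapped, and the call was lost without any 1 of G-NHA9Midi 3 or 4 or G-NHA9Midi-21FGAA 1, 2 or 3 (adjusted p up to 0.12, edgeR), with only the compared groups in the fit, and without the libraries numbered 1.

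Of 10 other CC chemokine genes in the table, 5 passed the filter (Ccl1, Ccl5, Ccl8, Ccl12 and Ccl25), all at group means of 10.7 CPM or less. Ccl5, a T cell attractant, was higher with G-NHA9 than with the empty vector (2.03 ± 0.631 against 0.992 ± 0.354 CPM, SD, n = 5; adjusted p = 0.027, edgeR), and so was the monocyte attractant Ccl12 (4.31 ± 2.28 against 1.68 ± 0.444 CPM, SD, n = 5; adjusted p = 0.045, edgeR). Against the empty vector, 2 of the 5 were called higher with G-NHA9 (Ccl5, Ccl12), 2 with G-NHA9-21FGAA (Ccl1, Ccl8), 1 with G-NHA9Midi-21FGAA (Ccl1) and none with the other 3 constructs, where edgeR gave adjusted p of 0.082 or more. Of all genes, 32.1%, 27.1% and 16.9% were called in either direction with the constructs named, and 17.2% to 40.5% with the other 3. The call of Ccl8 rested on 1 library, G-NHA9-21FGAA 4, at 2.99 CPM. The other 4 of that group averaged 0.222 CPM, and without it the log2 change went from 3.98 to 2.10 (adjusted p = 0.25, edgeR; chosen after seeing the data). Ccl1 and Ccl8 averaged under 1 CPM and are named here after their values were seen.

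Of 14 CC chemokine receptor genes listed, 8 passed the filter. Against the empty vector, 3 of them were higher and 0 lower with G-NHA9, 3 and 1 with G-NHA9-8FA, 4 and 2 with G-NHA9Midi, and 1 and 0 with each other construct. Of all genes, 32.1%, 26.6% and 40.5% were called in the first 3 of these comparisons and 16.9% to 27.1% in the others. Their median log2 change ran from -0.25 to 0.65, and the most abundant were Ccr1 and Ccr2. Ccr2, the monocyte receptor for Ccl2 and Ccl7, was at 296 ± 64.2 CPM (SD, n = 5) with the empty vector. It rose with G-NHA9 (784 ± 190 CPM, SD, n = 5; adjusted p = 1.3e-05, edgeR), G-NHA9-8FA (580 ± 132 CPM, SD, n = 5; adjusted p = 0.0015, edgeR) and G-NHA9Midi (979 ± 228 CPM, SD, n = 5; adjusted p = 3e-07, edgeR). The libraries of these constructs lay above all of the empty vector, and the means with the others were between 222 and 303 CPM, without a call.

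Ccr1 lay between 387 and 656 CPM on average and was not called against the empty vector. Ccr4, the receptor of Ccl17 and Ccl22, was near the floor of the table, at 0.434 ± 0.154 CPM (SD, n = 5) with the empty vector and 2.73 ± 1.60 CPM (SD, n = 5) with G-NHA9 (adjusted p = 1.6e-05, edgeR). It was also higher with G-NHA9Midi, at 2.53 ± 0.957 CPM (SD, n = 5; adjusted p = 1.7e-05, edgeR), and with G-NHA9-8FA, at 1.27 ± 0.674 CPM (SD, n = 5; adjusted p = 0.0085, edgeR), and it was not called with the other 3 constructs.

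The atypical receptor Ackr1, which red cell precursors carry and which binds but does not signal, was higher with the 21FGAA and ΔDNA constructs, at 3.26 to 3.40 CPM on average, than with the empty vector (1.16 ± 0.408 CPM, SD, n = 5). It was lower with G-NHA9-8FA (0.128 ± 0.0454 CPM, SD, n = 5) and G-NHA9Midi (0.0572 ± 0.0455 CPM, SD, n = 5). Of 9 erythroid markers tested, all were lower with G-NHA9-8FA and 8 with G-NHA9Midi, where 26.6% and 40.5% of all genes were called. With the 21FGAA and ΔDNA constructs 2 to 7 were higher, where 16.9% to 27.1% of all genes were called. The summed level of the erythroid markers ranged over libraries from 23.7 to 78.0 CPM with G-NHA9-8FA and G-NHA9Midi, from 220 to 678 CPM with the empty vector and from 336 to 1734 CPM with the 21FGAA and ΔDNA constructs. Their part in the result was not tested.

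**Figure D5:**
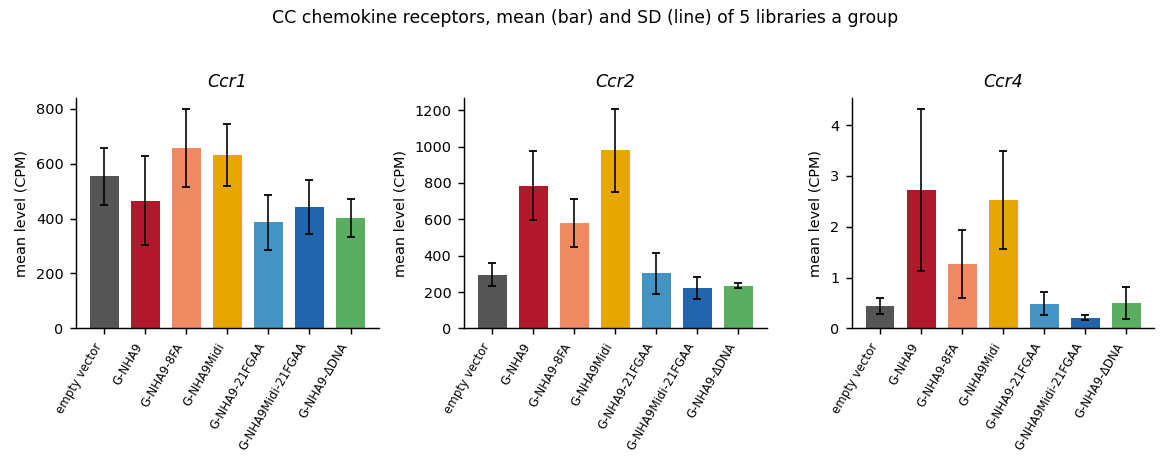
Mean level in CPM (bars, linear axes from 0) and SD (lines) of the receptors Ccr1, Ccr2 and Ccr4 in the 7 groups of 5 libraries. Ccr2 was highest with G-NHA9Midi (979 CPM), while Ccr4 stayed under 3 CPM on average in every group.

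Among 17 genes of NF-kB signalling and inflammatory cytokines, all tested, 6 were higher with G-NHA9-8FA and 7 with G-NHA9Midi than with the empty vector, and none was lower, where 26.6% and 40.5% of all genes were called in either direction. The share with G-NHA9Midi was near that of all genes. Their median log2 change was 0.71 and 0.67, beside 0.03 and 0.02 over all genes. Tnf, an inflammatory cytokine, rose from 62.4 to 140 CPM with G-NHA9-8FA (log2 1.17 ± 0.18, SE; adjusted p = 9.6e-06, edgeR) and to 121 CPM with G-NHA9Midi (0.96 ± 0.18, SE; adjusted p = 6.5e-05, edgeR). With G-NHA9, which also raised Ccl4, 2 of the 17 were higher (32.1% of all genes were called) and the median was 0.04. With the other constructs no more than 2 were called higher, and no more than 1 lower, where 16.9% to 27.1% of all genes were called.

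Of 18 genes of type 2 cytokines and alternative macrophage activation, 17 were tested, and the called ones went both ways. Chil3, a chitinase-like secreted protein of macrophages, fell with G-NHA9 from 10420 to 1993 CPM (log2 -2.39 ± 0.31, SE; adjusted p = 3.5e-07, edgeR) and with G-NHA9Midi to 1946 CPM (-2.42 ± 0.31, SE; adjusted p = 1.5e-07, edgeR). The cytokine Il4 was higher with G-NHA9-21FGAA (8.77 against 4.28 CPM; adjusted p = 0.019, edgeR), as was Il13 (7.68 against 2.98 CPM; adjusted p = 0.0028, edgeR). With G-NHA9-21FGAA, 2 genes of the list were higher and 3 lower, and with G-NHA9-ΔDNA 0 and 1. Of all genes, 27.1% and 17.2% were called in either direction in these comparisons, and 32.1% with G-NHA9 and 40.5% with G-NHA9Midi. Il4 and Il13 are given for G-NHA9-21FGAA only. The summed level of the 18 genes, of which Chil3 was the most abundant, averaged 13490 CPM with the empty vector. It averaged 8973 CPM with G-NHA9-21FGAA, 8289 CPM with G-NHA9Midi-21FGAA and 11370 CPM with G-NHA9-ΔDNA, where Ccl17 was called higher. A part of this list in the Ccl17 result was not tested.

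Markers of the cells that can make these chemokines moved with the groups. The summed level of 17 macrophage markers was 3564 to 4704 CPM with the empty vector, 1825 to 3279 CPM with G-NHA9 and 1749 to 3176 CPM with G-NHA9Midi. Ccl6 was highest with the empty vector and lowest with G-NHA9 and G-NHA9Midi. The marker sum was 1944 to 3298 CPM with G-NHA9-21FGAA, 2146 to 3995 CPM with G-NHA9-8FA and 2845 to 3175 CPM with G-NHA9-ΔDNA. In these groups Ccl6 averaged 5193, 6502 and 6009 CPM. With G-NHA9Midi-21FGAA the sum was 2992 to 4070 CPM and Ccl6 averaged 6958 CPM. Of the 14 macrophage markers tested, 5 were lower and 3 higher with G-NHA9, and 9 were lower and 2 higher with G-NHA9Midi. Of all genes, 32.1% and 40.5% were called in either direction in these comparisons. Late neutrophil markers, 12 genes, summed to 9084 to 13020 CPM with the empty vector and 8629 to 14670 CPM with G-NHA9. With G-NHA9Midi they summed to 10330 to 22080 CPM. For monocyte markers the sum was 1113 to 1337 CPM with the empty vector and 1717 to 3403 CPM over the libraries with G-NHA9Midi, G-NHA9 and G-NHA9-8FA, the 3 in which Ccl4 rose.

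Mast cell and basophil markers, 12 genes, summed to 1520 to 3923 CPM with the empty vector and to no more than 1105 CPM in any library of G-NHA9Midi, G-NHA9 or G-NHA9-8FA. They summed to 3002 to 6991 CPM over the libraries of the other 3 constructs, in which Ccl17 was called higher. Eosinophil markers, 9 genes, summed to 77.1 to 298 CPM with G-NHA9-8FA, where Ccl24 was called lower, and to 44.2 to 128 CPM with G-NHA9Midi, where it was not. With the empty vector they summed to 1389 to 1929 CPM. Prg2 and Epx were the most abundant of these markers. Ccr3, the receptor of Ccl24 and also on this list, went the other way with G-NHA9Midi. It was at 1.174 to 2.292 CPM there, against 0.4318 to 1.171 CPM with the empty vector, and averaged 0.475 CPM with G-NHA9-8FA. Dendritic cell markers, 10 genes, summed on average to 1289 CPM with the empty vector and to less with every construct. The average was 812 CPM with G-NHA9-21FGAA, 1134 CPM with G-NHA9Midi-21FGAA and 1019 CPM with G-NHA9-ΔDNA, where Ccl17 was called higher. It was 1093 CPM with G-NHA9, where Ccl22 was called higher, 877 CPM with G-NHA9-8FA and 796 CPM with G-NHA9Midi. Of these markers, Xcr1 and Siglech were near 0 throughout. The part of these shifts in the chemokine results was not tested.

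For each member, the 2 genes closest in log2 CPM across the 35 libraries were taken from 10307 genes averaging 5 CPM or more. They included another member for Ccl2, Ccl3, Ccl4, Ccl7 and Ccl9, and none for Ccl6, Ccl17, Ccl22 and Ccl24. Ccl7 was first for Ccl2, and the adhesion gene Flrt3 second (Pearson correlation 0.836). For Ccl3 the transcription factor gene Ets2 came first (0.914) and Ccl4 second, and for Ccl4 the second was the endotoxin co-receptor gene Cd14 (0.863). Ccl6 was nearest to Lyz2, the lysozyme gene of macrophages and neutrophils (0.937), and to Esd (0.933). Ccl17 was nearest to Xpnpep1 (0.918) and the lactate dehydrogenase gene Ldha (0.895), Ccl22 to Rasal2 (0.813) and Abcc3 (0.794), Ccl9 to Bst2 (0.741) and Ccl4 (0.730), and Ccl24 to Cyc1 (0.553) and Ap1g2 (0.534). These are descriptions across libraries that share groups.

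Among genes within 100 kb of a member, Ccdc102a lies 90832 bases from Ccl17. It was higher with G-NHA9 (3.57 against 1.06 CPM; log2 1.75, adjusted p = 3.5e-06, edgeR) and was not called with the other 5 constructs. Ccl17 was not called with G-NHA9, and Ccl22, which was higher there, lies more than 100 kb from Ccdc102a. The chemokine Cx3cl1, which lies between Ccl22 and Ccl17, was lower with G-NHA9-8FA, G-NHA9Midi and G-NHA9-21FGAA, at 0.613 to 0.697 CPM against 1.15 CPM. On chromosome 11, Wfdc21 lies 82256 bases from Ccl4. It was lower with G-NHA9 (120 against 248 CPM; log2 -1.05, adjusted p = 0.00066, edgeR) and G-NHA9Midi (72.1 CPM; log2 -1.79, adjusted p = 2.6e-07, edgeR), where Ccl4 was higher. Ccl6, which was lower with both, lies more than 100 kb from Wfdc21. Wfdc17, which lies closer to Ccl4, was called lower with G-NHA9-21FGAA and G-NHA9-ΔDNA and not with G-NHA9 (764 against 858 CPM).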

How the data were processed

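RNA was sequenced as stranded total RNA from 35 libraries. The authors deposited 1 table of whole-number gene counts, made per the labels with STAR 2.7.0d and HTSeq 0.11.2 on mm10. The strand setting and gene annotation are not given in the sources used here, and DESeq2 is also named in the submitters' notes. Counts are not normalised for length, and total counts of 31559914 to 75810659 set the counting error.

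Libraries were grouped by the construct on the labels. Low counts were removed with filterByExpr, which kept 17166 genes and 99.96% of counts, and libraries were scaled by TMM (factors 0.899 to 1.11). All 7 groups entered 1 fit in edgeR 4.0.16 (limma 3.58.1, R 4.3.3) without a block, with 14 pairwise comparisons, the interaction and a test over all groups. Correlations and deviations rest on log2 CPM (prior count 2). On simulated counts for G-NHA9 against the empty vector (16875 genes), 62.6% of 99 genes changed by 1 on the log2 scale were recovered. Of 98 changed by 2, 88.8% were. So few genes changed there, without an effect of replicate number, while 32.1% of all genes were called in the data. These rates therefore do not describe the tests of the data.

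Genes were placed with GENCODE M21, to which 99.3% of identifiers matched. The alternatives were libraries unscaled or with RLE size factors, no filter or a stricter one, only the groups compared, a minimum change of 1, DESeq2 1.42.0, the replicate block and removal of each library. Removing the libraries not labelled 8 weeks, or those numbered 1, was added after seeing the data. Same-numbered libraries of 2 groups deviated from their group means together (mean correlation 0.309, against -0.0748 for other numbers). The main tests used no pairing. Every same-numbered pair exceeded 0.1 in 5 of the 14 comparisons. In 3 of these the reference was the empty vector (compared with G-NHA9-ΔDNA, G-NHA9 and G-NHA9Midi-21FGAA) and in 2 it was G-NHA9 (compared with G-NHA9-ΔDNA and G-NHA9-21FGAA).

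The members and lists were chosen with earlier results of these data known. All members were named, with up to 4 called genes of largest change and the 3 most abundant genes of each list, the 2 genes most correlated with each member, and genes within 100 kb. The list of chemokine receptors leaves out 1 gene, which is not reported here.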

Additional observations from a re-analysis of the deposited data

Results flagged for a closer look

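In 5 of the 63 sets of 5 libraries (9 genes in 7 groups), the highest or lowest library stood far from the rest of its group by Dixon's criterion, where chance gives about 1 in 20, or 3.15. In empty vector 1, Ccl2 stood at 213.2 CPM, Ccl3 at 285.9 CPM and Ccl7 at 46.78 CPM, each above the other empty vector libraries. In G-NHA9-ΔDNA 1, Ccl3 stood at 300.6 CPM, above the rest of its group. In G-NHA9-21FGAA 5, Ccl6 stood at 4238 CPM, below the 5321 CPM of the next library. The change of Ccl22 by the FG substitutions differed between the long and the short construct, by -2.4616 on the log2 scale in a test of the difference itself (95% interval -3.22 to -1.70; adjusted p = 2.2e-05, edgeR), with Ccl22 lower after substitution in the long construct and higher in the short one.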

How the results depend on the processing

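Of 1350 values of single members under alternatives that kept all replicates or dropped a set of them, 1260 kept their side of the threshold, 49 lost the call and 41 gained it. Of 1440 with 1 library left out, the numbers were 1360, 54 and 26. Most values of both sets were not called in the main fit, so the lost calls are out of far fewer values than these totals. In both sets, 0 values called before or after changed sign, while some small uncalled ones did. The counts below are of members called.

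Without TMM, G-NHA9 against the empty vector gave 5 and G-NHA9Midi 4, and the share of called genes that were higher went from 50.4% to 58.5% (G-NHA9-8FA), 50.6% to 64.6% (G-NHA9Midi), 54% to 82.1% (G-NHA9-21FGAA), 56.7% to 83.1% (G-NHA9Midi-21FGAA) and 57.3% to 82.5% (G-NHA9-ΔDNA). It went from 44.4% to 20% for G-NHA9-8FA against G-NHA9, and against G-NHA9-8FA from 47.2% to 68% (G-NHA9-21FGAA) and 35.5% to 59.1% (G-NHA9Midi).

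With the replicate block, the count was 5 for G-NHA9, 4 for G-NHA9Midi and 3 for G-NHA9Midi-21FGAA against the empty vector, 3 for G-NHA9Midi against G-NHA9, 4 for G-NHA9Midi against G-NHA9-21FGAA and 2 for the interaction. In the 5 comparisons in which every same-numbered pair exceeded a correlation of 0.1, the block changed few calls. They were those of Ccl3 and Ccl7 (G-NHA9 against the empty vector), Ccl2 and Ccl7 (G-NHA9Midi-21FGAA against it) and Ccl17 (G-NHA9-21FGAA against G-NHA9). With only the groups compared the count was 2 for G-NHA9Midi against G-NHA9 and 1 for G-NHA9Midi against G-NHA9-8FA. For G-NHA9Midi against G-NHA9, DESeq2 and the libraries labelled 8 weeks each gave 2. Without the libraries numbered 1, it was 2 for G-NHA9Midi-21FGAA and 1 for G-NHA9-ΔDNA against the empty vector, 1 for G-NHA9-21FGAA against G-NHA9 and 1 for G-NHA9Midi against G-NHA9-8FA.

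Tested for a change beyond 1 on the log2 scale, a stricter question, G-NHA9-8FA against the empty vector gave 1 and the other 5 constructs 0. Against G-NHA9 the count was 1 for G-NHA9-8FA and G-NHA9-ΔDNA and 0 for G-NHA9-21FGAA. It was 1 for G-NHA9Midi-21FGAA against G-NHA9Midi, 2 for G-NHA9-21FGAA against G-NHA9-8FA, and for G-NHA9Midi 0 against G-NHA9-8FA and 1 against G-NHA9-21FGAA.

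With 1 library left out, the count against the empty vector was 3 to 5 for G-NHA9 (5 without empty vector 1), 1 to 2 for G-NHA9Midi-21FGAA (2 without empty vector 1) and 1 to 3 for G-NHA9-ΔDNA. Against G-NHA9 it was 1 to 2 for G-NHA9Midi and 1 to 4 for G-NHA9-21FGAA (1 without G-NHA9 4). It was 1 to 2 for G-NHA9Midi against G-NHA9-8FA (1 without G-NHA9Midi 2), 1 to 3 for G-NHA9Midi against G-NHA9-21FGAA, and 1 to 2 for the interaction. Apart from effects of construction, the cause was not tested.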
